A study of Mus musculus with 6 samples.

Results

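Osteocytes are the bone cells embedded in mineral, and 10 genes of this cell were followed in the tibia of mice lacking *Atrx* in the osteoblast lineage. The genes were *Sost*, *Dmp1*, *Mepe*, *Phex*, *Fgf23*, *Pdpn*, *Fam20c*, *Galnt3*, *Irx5* and *Cd44*. They were chosen by name, as the rows whose GENCODE M21 symbol is in this list, and make up 10 of the 55401 genes in the count tables. None of the 10 shares an exonic base with another annotated gene. The Atrx-cKO group held 3 tibias of the genotype Osterix-Cre; Atrxf/y and the control group 3 tibias of the genotype Atrxf/y, all taken from mice 8 weeks old. Both groups are male and carry the floxed *Atrx* allele, and only Atrx-cKO mice carry the *Osterix-Cre* transgene, so the transgene and the deletion cannot be told apart in these libraries. The recombinase is driven in preosteoblasts by a Tet-off system and was held silent with doxycycline until 3 weeks of age, which limits the deletion to cells that used the driver after that age and to their descendants. A whole tibia also holds marrow, vessels and adhering muscle. Nothing in the labels says how the mice were matched or whether litters were shared. The edgeR and DESeq2 p-values here weigh a difference between genotypes against the spread of these libraries within genotypes.

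Osteocytes control bone from inside the matrix. Sclerostin, the product of *Sost*, binds the Wnt co-receptors LRP5 and LRP6 and restrains bone formation, while the SIBLING protein DMP1 and the endopeptidase PHEX support mineralization and restrain the production of FGF23. FGF23 is a hormone that lowers phosphate reabsorption and vitamin D activation in the kidney. GALNT3 glycosylates it and protects it from cleavage, FAM20C phosphorylates it and opens it to cleavage, and loss of *Phex*, *Dmp1* or *Fam20c* is known to raise circulating FGF23. Podoplanin, encoded by *Pdpn*, marks osteoblasts that are becoming osteocytes, CD44 is a hyaluronan receptor that also binds osteopontin, and IRX5 is an Iroquois homeodomain factor of the skeleton.

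The sequences that distinguish the hormone and the pair of genes with the largest spread are printed here. The stretch of *Fgf23* that encodes the cleavage site of the hormone is shown because both GALNT3 and FAM20C act on it. It is the coding bases 523 to 549 of the longest open reading frame of 251 codons in the GENCODE M21 transcript, read on the plus strand of chromosome 6. The capitals mark the arginine codons 176 and 179, and the serine codon 180 follows directly. The frame holds 4 stretches of 4 codons with arginine at both ends, of which this is the 1 followed by a serine codon.
*Fgf23* cleavage site: cggCGCcacacgCGCagcgccgaggac

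The 250 bases before the RefSeq start of *Sost*, *Mepe* and *Dmp1* are shown because *Sost* and *Mepe* shared a pattern across the libraries that *Dmp1* did not. They lie at chr11:101967016-101967265 on the minus strand for *Sost*, chr5:104325079-104325328 on the plus strand for *Mepe*, and chr5:104202367-104202616 on the plus strand for *Dmp1*, all on GRCm38.p6 and all printed in the direction of the gene. RefSeq windows were found for 9 of the 10 genes. *Irx5* had no entry. *Dmp1* had an upstream start as well, whose window at chr5:104197325-104197574 held none of the motifs searched. The start shown is the one nearest the GENCODE M21 gene start, and which of them the tibia used was not measured. Capitals mark matches on either strand to the RUNX-type letters TGNGGT or to the TATA box letters TATAAA.
*Sost*: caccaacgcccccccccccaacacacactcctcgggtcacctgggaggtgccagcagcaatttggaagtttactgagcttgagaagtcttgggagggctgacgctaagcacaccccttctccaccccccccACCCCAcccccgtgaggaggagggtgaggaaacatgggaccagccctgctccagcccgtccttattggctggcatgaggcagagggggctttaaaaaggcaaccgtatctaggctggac
*Mepe*: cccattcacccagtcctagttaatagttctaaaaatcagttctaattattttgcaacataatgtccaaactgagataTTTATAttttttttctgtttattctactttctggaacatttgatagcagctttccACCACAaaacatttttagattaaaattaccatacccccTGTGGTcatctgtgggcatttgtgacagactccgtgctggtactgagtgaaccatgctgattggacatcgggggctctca
*Dmp1*: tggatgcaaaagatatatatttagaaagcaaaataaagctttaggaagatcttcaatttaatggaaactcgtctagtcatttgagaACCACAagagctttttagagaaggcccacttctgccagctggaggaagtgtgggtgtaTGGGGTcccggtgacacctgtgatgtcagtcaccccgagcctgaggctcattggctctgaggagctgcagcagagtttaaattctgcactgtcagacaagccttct

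Counted with -1 for the last base before the start, the RUNX-type letters began at -119 in *Sost*, at -118 and -80 in *Mepe*, and at -164 and -106 in *Dmp1*. They occur in 40.1% of all 32851 promoter windows of this length, so their presence sets none of the 3 genes apart. TATAAA was found in the *Mepe* window alone of the 3, at -173 on the opposite strand, and occurs in 12.4% of all windows. The MEF2-type letters CTANNNNTAG, which occur in 3.2% of windows, were in none of the 3. No matched motif overlapped another. A match of letters is a description of the window and not a measured site.

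The libraries held 50977777 to 70571655 reads counted on genes, and 20636 genes passed edgeR's expression filter. All 10 osteocyte genes were among them. *Atrx* itself was measured at 153, 166 and 171 CPM, the count scaled to the size of the library with TMM normalization, in Atrx-cKO libraries and at 174, 166 and 165 in control libraries. Since this is a count of the entire gene in an entire bone, it does not check the genotype labels. Cell content varied between libraries. Control replicate 3 had 11632 CPM summed over 10 skeletal muscle markers against 678 to 2357 in the other 5. Control replicate 1 had the highest sum over 8 erythroid markers (5842 CPM against 2276 to 4590) and over 7 B cell markers (604 against 274 to 497), and the lowest over 9 osteoblast markers (107830 against 113841 to 183766). Fold changes of members that this library moved by over 1.5 times are also given without it.

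All 10 genes were detected in every tibia, as levels of the whole bone and not of osteocytes alone. Per kilobase of exon, which allows levels of different genes to be set side by side, *Dmp1* led with 226 ± 28.3 CPM per kb (SD, n = 6), and its lowest library lay above the highest library of every other member. It was followed by *Mepe* at 88.0 ± 41.5, *Phex* at 54.8 ± 5.67, *Sost* at 54.7 ± 33.7 and *Cd44* at 34.9 ± 2.13. The ranges of *Mepe*, *Phex* and *Sost* overlapped along this order, and so did those of *Sost* and *Cd44*. *Pdpn* at 15.1 ± 5.08, *Irx5* at 14.3 ± 1.96, *Fam20c* at 13.1 ± 1.77 and *Galnt3* at 10.1 ± 1.52 formed a lower group, below every library of *Cd44* and with overlapping neighbors. *Fgf23* was the lowest, at 0.923 ± 0.412 CPM per kb, and its highest library, at 1.58, lay below the lowest of *Galnt3*, at 8.14.

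**Figure D1:**
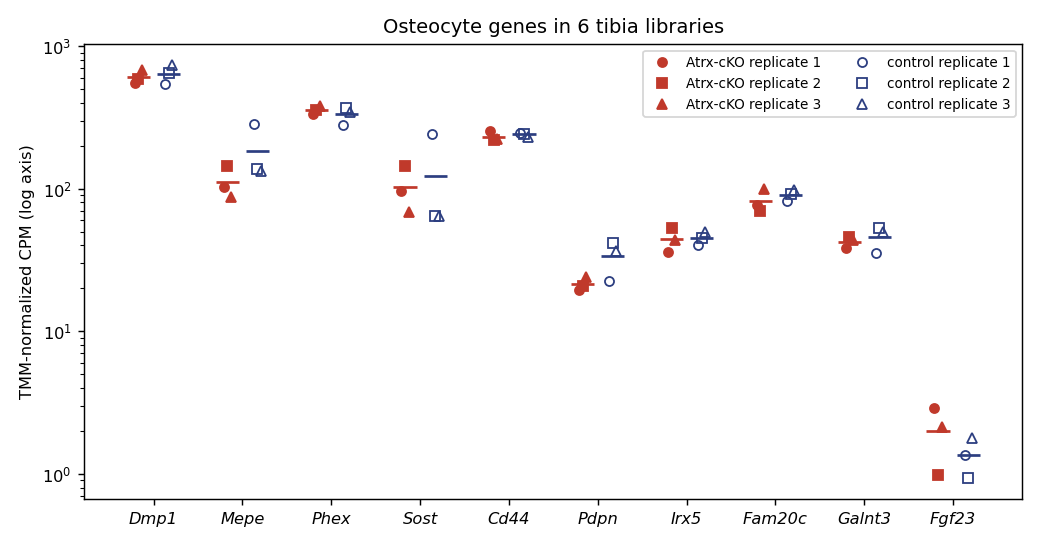
TMM-normalized CPM of the 10 osteocyte genes (log axis), ordered by level per exonic kb, with filled red symbols for 3 Atrx-cKO libraries, open blue symbols for 3 control libraries and short lines for group means. The groups overlap for each of the 10 genes, and control replicate 1 lies apart at the top for *Sost* (241 CPM) and *Mepe* (283 CPM).

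No osteocyte gene passed the test between genotypes. A gene counted as called when its Benjamini-Hochberg adjusted p lay under 0.05 and its log2 fold change was 1 or more in either direction. By this rule edgeR's quasi-likelihood test called 0 of the 10, against 0.0145% of all genes tested. The DESeq2 Wald test called 0 of the 10 as well, against 0.0961% of the genes it tested. At an unadjusted p under 0.05 edgeR gave 1 of 10 members, *Pdpn*, against 3.64% of all genes, and DESeq2 gave 1 of 10, against 4%. In no member did the Atrx-cKO libraries lie wholly above or below the control libraries, which 8.31% of all genes tested did. The median log2 fold change (Atrx-cKO over control) was -0.10 over the members and 0.0050 over all genes, with 8 members below 0 and 2 above. Scaled to osteoblast markers in place of all genes, the median turned to 0.17 over the members, still under the 0.25 of all genes. In a whole bone, fewer osteocytes and less RNA per osteocyte cannot be told apart.

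**Figure D2:**
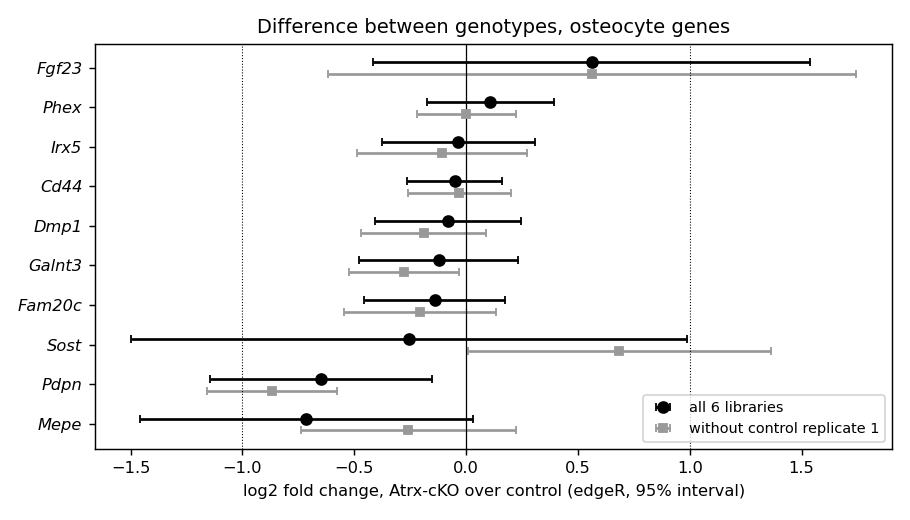
log2 fold change of the 10 genes, Atrx-cKO over control, with 95% intervals from edgeR, for all 6 libraries (black circles) and without control replicate 1 (gray squares). Dotted lines mark a log2 fold change of 1 in either direction. *Sost* moves from -0.26 to 0.69 when control replicate 1 is left out, and *Cd44* and *Phex* stay near 0 with narrow intervals.

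*Sost*, the Wnt antagonist made by mature osteocytes (ENSMUSG00000001494, chromosome 11 from 101962458 to 101967015, minus strand, GRCm38), varied more within genotypes than between them. It had 95.7, 144 and 68.8 CPM in Atrx-cKO libraries and 241, 63.8 and 64.4 CPM in control libraries. Control replicate 1 held more than any other library, and the other two control libraries held less than any Atrx-cKO library. Its log2 fold change came to -0.26 with a standard error of 0.53 (adjusted p = 0.994, edgeR). The 95% interval ran from -1.50 to 0.99, so with these mice a difference near the call threshold was not detectable. Without control replicate 1 the log2 fold change reversed to 0.69 (95% interval 0.0087 to 1.36, adjusted p = 0.509, edgeR). That interval, before adjustment over all genes, narrowly left out 0. The highest *Sost* library held 3.77 times the lowest, and its within-genotype SD of 0.86 on the log2 scale was at the 98.7 percentile of all genes tested.

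*Mepe*, a SIBLING gene of late osteocytes and source of the mineralization-inhibiting ASARM peptide (ENSMUSG00000053863, chromosome 5 from 104325329 to 104338611, plus strand) shared the 2 highest libraries of *Sost*. It had 103, 145 and 87.9 CPM in Atrx-cKO and 283, 136 and 132 CPM in control. Control replicate 1 was the highest for both genes and Atrx-cKO replicate 2 the next, and the other 4 libraries followed in a different order. Its log2 fold change came to -0.71 with a standard error of 0.32 (adjusted p = 0.992, edgeR), and the 95% interval ran from -1.46 to 0.030. It was -0.26 without control replicate 1 and -0.57 to -0.96 without any other single library. Its within-genotype SD of 0.51 was at the 96.1 percentile.

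*Dmp1* and *Phex*, whose loss raises FGF23, varied less within genotypes than *Sost* and *Mepe*. Their within-genotype SD of 0.19 and 0.16 on the log2 scale was at the 56.6 and 44.9 percentile of all genes tested. *Dmp1*, the matrix protein that supports mineralization around osteocytes (ENSMUSG00000029307, chromosome 5 from 104202613 to 104214102, plus strand), had 550, 591 and 678 CPM in Atrx-cKO and 541, 644 and 741 CPM in control. *Phex* (ENSMUSG00000057457, chromosome X from 157162075 to 157415312, minus strand) had 335, 356 and 382 CPM in Atrx-cKO and 280, 368 and 347 CPM in control. Control replicate 1, the library highest for *Sost* and *Mepe*, was the lowest for both *Dmp1* and *Phex*. Between genotypes the log2 fold change was -0.08 (95% interval -0.41 to 0.25) for *Dmp1* and 0.11 (95% interval -0.17 to 0.39) for *Phex*, each with an adjusted p of 0.992 in edgeR. These intervals leave out a change of 1 on the log2 scale. Without control replicate 1 the values were -0.19 and 0.00058.

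**Figure D3:**
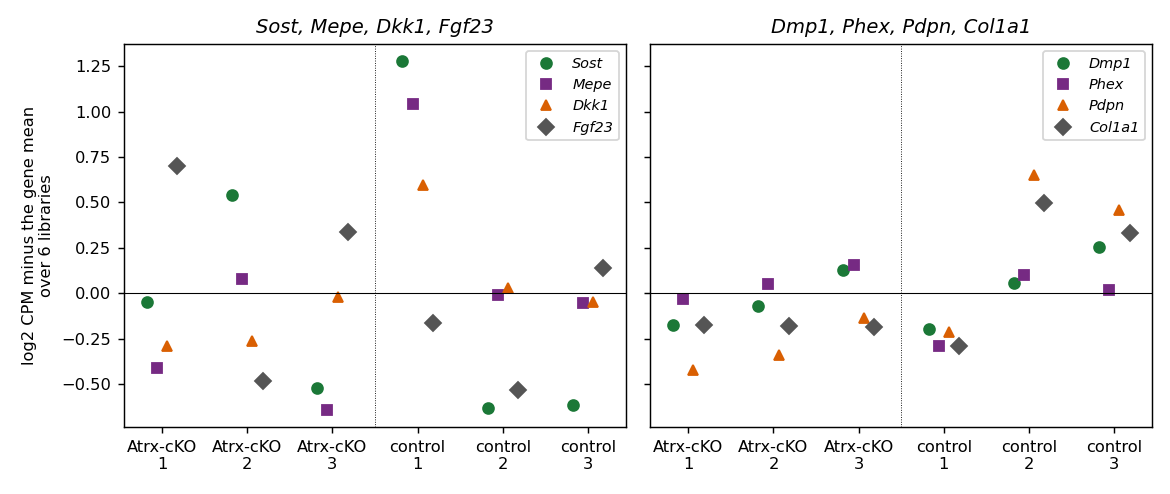
log2(CPM + 0.5) of each gene minus its mean over 6 libraries, by library, with *Sost*, *Mepe*, *Dkk1* and *Fgf23* on the left and *Dmp1*, *Phex*, *Pdpn* and *Col1a1* on the right. In control replicate 1, *Sost* is 1.28, *Mepe* 1.04 and *Dkk1* about 0.6 above their means, while *Dmp1*, *Phex*, *Pdpn* and *Col1a1* are below theirs.

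Likeness of profile was described by the root mean square difference of centered log2(CPM + 0.5) over the 6 libraries, without a test. Among the 20635 other genes tested, *Mepe* ranked 34th nearest to *Sost* at 0.43 on the log2 scale, and the other members ranked from 7165th (*Cd44*) to 20060th (*Pdpn*). The 5 nearest to *Sost* were *4930597A21Rik*, *Arsj*, *Fam71b*, *Csrp3* and *Ighv2-9*, all with their highest value in control replicate 1 and none above 6.61 CPM. Nearest to *Dmp1* were *Glis2*, *Mpzl1*, *Pdpr*, *Antxr2* and *Gm15506*, with differences from 0.030 to 0.037. Among members, *Fam20c* ranked 1220th, *Galnt3* 2113th and *Phex* 2131st by likeness to *Dmp1*. *Mepe*, a SIBLING gene of the same cluster as *Dmp1*, ranked 20183rd.

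*Fgf23*, the phosphate hormone itself (ENSMUSG00000000182, chromosome 6 from 127072902 to 127081408, plus strand), was detected in every library at low counts. The Atrx-cKO libraries held 168, 56 and 125 counts and the control libraries 77, 62 and 85. In TMM-normalized CPM these were 2.87, 0.981 and 2.12 in Atrx-cKO against 1.35, 0.931 and 1.79 in control. The highest values were both Atrx-cKO, but Atrx-cKO replicate 2 lay below 2 of the 3 control libraries. By counting error alone (Wilson 95% interval of the share of counts on genes), Atrx-cKO replicate 1 lay between 2.49 and 3.37 CPM and Atrx-cKO replicate 2 between 0.782 and 1.32, so these libraries of the same genotype differed beyond counting error. Its log2 fold change came to 0.56 with a standard error of 0.42 (adjusted p = 0.992, edgeR), and the 95% interval ran from -0.42 to 1.54. It ran from 0.20 without Atrx-cKO replicate 1 to 0.88 without Atrx-cKO replicate 2. The genes nearest to *Fgf23* in profile were *Ighg2c*, *Ogdhl*, *Gfra3*, *Gm37120* and *Cdh19*. *Ighg2c*, an antibody heavy chain constant gene, had 90.0, 45.6 and 73.3 CPM in Atrx-cKO and 48.3, 40.7 and 71.9 CPM in control, with its highest and lowest library the same as for *Fgf23*. The part of antibody-producing cells in the *Fgf23* values was not tested.

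The enzymes that act on the FGF23 protein did not differ detectably. *Galnt3*, whose O-glycosylation protects the site printed above (ENSMUSG00000026994, chromosome 2 from 66082766 to 66124994, minus strand), had 38.1, 45.6 and 43.3 CPM in Atrx-cKO and 35.6, 53.2 and 49.5 CPM in control. *Fam20c*, the secretory kinase that phosphorylates the serine of that site (ENSMUSG00000025854, chromosome 5 from 138754514 to 138810077, plus strand), had 76.7, 70.2 and 98.8 CPM in Atrx-cKO and 81.9, 91.6 and 97.4 CPM in control. The highest *Fam20c* library was Atrx-cKO replicate 3 and the highest *Galnt3* library control replicate 2. As a log2 fold change the difference was -0.12 (95% interval -0.48 to 0.23) for *Galnt3* and -0.14 (95% interval -0.46 to 0.18) for *Fam20c*, each with an adjusted p of 0.992 in edgeR. Single libraries moved both. *Galnt3* ran from -0.28 without control replicate 1 (95% interval -0.52 to -0.032, adjusted p = 0.466, edgeR) to -0.0063 without control replicate 2. *Fam20c* ran from -0.30 without Atrx-cKO replicate 3 to -0.050 without Atrx-cKO replicate 2, and was -0.21 without control replicate 1.

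Ratios within a library remove its scaling, and 4 pairs were compared as log2 ratios of CPM + 0.5 with an exact two-sided permutation test, which cannot go below p = 0.1 with 3 libraries against 3. For *Fgf23* to *Dmp1* the log2 ratio averaged -8.00 in Atrx-cKO (SD 0.65, n = 3) and -8.45 in control libraries (SD 0.33, n = 3), with an exact permutation p of 0.4 (0.533 adjusted over the 4 pairs). The difference of 0.45 was 0.12 without Atrx-cKO replicate 1, 0.26 without control replicate 2 and 0.77 without Atrx-cKO replicate 2. The *Sost* to *Dmp1* log2 ratio was -2.61 ± 0.64 in Atrx-cKO and -2.67 ± 1.30 in control (exact permutation p = 0.9, adjusted 0.9, n = 3 each). Its sign depended on single libraries: the difference of 0.055 became 0.81 without control replicate 1 and -0.37 without control replicate 3. The *Phex* to *Dmp1* log2 ratio was higher in Atrx-cKO by 0.19 and the *Dmp1* to *Col1a1* log2 ratio by 0.28, each with an exact permutation p of 0.2 (adjusted 0.4, n = 3 each). The first was 0.12 without control replicate 3, and the second was 0.13 without control replicate 2. No ratio separated the genotypes.

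*Pdpn*, the early osteocyte marker needed for dendrite formation (ENSMUSG00000028583, chromosome 4 from 143267431 to 143299564, minus strand), came nearest to a difference. It had 19.5, 20.7 and 24.0 CPM in Atrx-cKO and 22.6, 41.7 and 36.4 CPM in control. The 3 Atrx-cKO libraries sat close together, and control replicate 1 lay among them while the other 2 control libraries were higher. A log2 fold change of -0.65 (standard error 0.21, 95% interval -1.15 to -0.15) did not pass the test in edgeR (adjusted p = 0.992) or in DESeq2 (adjusted p = 0.309). Without control replicate 1 it was -0.87, with an adjusted p of 0.0967 in edgeR. DESeq2 gave it an adjusted p of 1.11e-06 on the same 5 libraries, where 2.96% of the genes it tested had one under 0.05, but the fold change stayed under the threshold of 1. The DESeq2 fit without this library was added after the values were seen.

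*Pdpn* shared its lowest control library, control replicate 1, with genes of bone-forming cells. *Col1a1*, the type I collagen gene that osteoblasts express at high level, had 58165, 57837 and 57564 CPM in Atrx-cKO and 53548, 92517 and 82629 CPM in control, so control replicate 1 was low for it too. From Atrx-cKO replicate 1 to replicate 3, *Pdpn* rose while *Col1a1* fell slightly. Summed over the 9 osteoblast markers, Atrx-cKO libraries held 113841 to 117423 CPM and control libraries 107830 to 183766. All 9 osteoblast markers had log2 fold changes below 0, as did 10064 of all 20636 genes tested. Their median was -0.30, and none passed the test. That median was -0.51 without control replicate 1, -0.18 without control replicate 2 and -0.15 without Atrx-cKO replicate 1. At an unadjusted p under 0.05 edgeR gave 1 of the 9, against 3.64% of all genes, and DESeq2 gave 3, against 4%. Groups were apart in 1 of the 9, against 8.31% of all genes tested. Scaled to the osteoblast markers in place of all genes, *Pdpn* had a log2 fold change of -0.34 (adjusted p = 0.714, edgeR), where the median of all genes was 0.25. Podoplanin also marks lymphatic endothelium, whose 4 markers summed to 87.4 to 98.3 CPM in Atrx-cKO and 71.9 to 86.2 CPM in control. Most of that sum was *Flt4*, at 81.6 to 94.2 CPM in Atrx-cKO and 67.2 to 78.9 CPM in control (log2 fold change 0.27, adjusted p = 0.992, edgeR). The other markers were lower in level, with *Prox1* at 0.135 to 0.806, *Lyve1* at 1.11 to 1.83 and *Reln* at 2.17 to 5.33 CPM. Of the 4 markers, 3 had a log2 fold change above 0 and 1, *Reln* (-0.32), below 0. The part of either cell type in the *Pdpn* values was not tested.

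*Cd44* was the steadiest of the 10 genes. This receptor, also present on marrow leukocytes and osteoclasts (ENSMUSG00000005087, chromosome 2 from 102811141 to 102901665, minus strand), had 254, 219 and 223 CPM in Atrx-cKO and 248, 243 and 230 CPM in control. The highest library held 1.16 times the lowest. Its log2 fold change came to -0.05 with a standard error of 0.09 (adjusted p = 0.992, edgeR), and the 95% interval ran from -0.26 to 0.16. Without control replicate 1 the value was -0.03.

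*Irx5* (ENSMUSG00000031737, chromosome 8 from 92357625 to 92376286, plus strand) had 36.1, 52.6 and 43.4 CPM in Atrx-cKO and 40.2, 45.1 and 50.0 CPM in control, a log2 fold change of -0.03 (standard error 0.15, 95% interval -0.38 to 0.31, adjusted p = 0.996, edgeR) that was -0.11 without control replicate 1. Its lowest and highest libraries were both Atrx-cKO. Of its 5 Iroquois relatives, *Irx2*, *Irx3* and *Irx6* passed the expression filter, 0 were called, and their median log2 fold change was -0.10. *Irx3*, its neighbor on chromosome 8, had 20.3, 37.1 and 28.4 CPM in Atrx-cKO and 28.1, 27.6 and 36.3 CPM in control. The third gene of that cluster, *Irx6*, chosen for mention after its values were seen, had 3.04, 5.50 and 4.65 CPM in Atrx-cKO and 4.50, 5.48 and 5.88 CPM in control. Atrx-cKO replicate 1 was the lowest library for all 3 genes of the cluster. *Irx1* and *Irx4* had 0 to 7 counts per library.

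*Dmp1* and *Mepe* lie in the SIBLING cluster of chromosome 5, in which *Dspp*, *Dmp1*, *Ibsp*, *Mepe* and *Spp1* follow each other on the plus strand, with *Spp1* beginning 264 kb after *Dspp*. The cluster genes differed widely in level, from *Spp1* (osteopontin) at 1624 CPM per exonic kb and *Ibsp* (bone sialoprotein) at 741 to *Dspp*, the dentin gene, with 1 count in 1 library and 0 in the other 5. Taken as up to 3 counts, a count of 0 allows 0.0425 to 0.0588 CPM at these depths, by counting error only. *Ibsp* had 1264, 1238 and 1293 CPM in Atrx-cKO and 1307, 1978 and 2114 CPM in control, groups that did not overlap, with a log2 fold change of -0.51 (adjusted p = 0.992, edgeR). Like *Pdpn* and *Col1a1*, it was at nearly the Atrx-cKO level in control replicate 1. *Spp1* had a log2 fold change of -0.09 (adjusted p = 0.994, edgeR) with groups that overlapped. None of the 4 measured genes of the cluster passed the test.

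**Figure D4:**
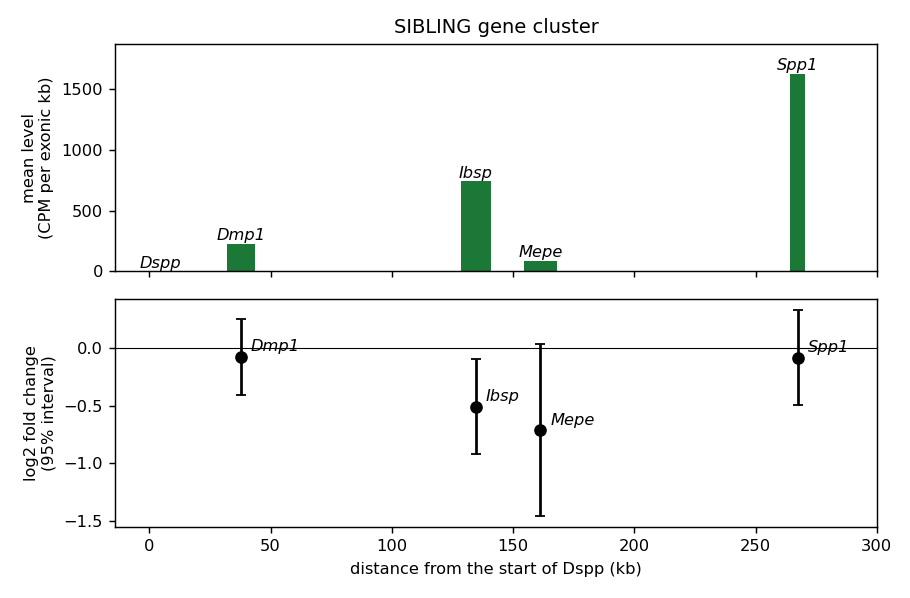
The 5 SIBLING genes by distance in kb from the start of *Dspp*, with mean level over 6 libraries in CPM per exonic kb (upper bars, widened to at least 6 kb for *Spp1*) and log2 fold change, Atrx-cKO over control, with 95% intervals from edgeR (lower points). *Spp1* has the highest level at 1624 CPM per kb, *Dspp* has no visible bar and no fold change, and the intervals of *Dmp1*, *Mepe* and *Spp1* span 0 while that of *Ibsp*, before adjustment over all genes, does not.

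Other genes known from osteocytes were not called either. Of 9 such genes, 9 were tested and 0 were called, and the median log2 fold change was -0.13 (0.14 with osteoblast scaling). In edgeR 2 of the 9 had an unadjusted p under 0.05, both lower, against 3.64% of all genes. DESeq2 called 0 of them and gave 3 an unadjusted p under 0.05, against 4% of the genes it tested. *Hyou1*, a chaperone of the endoplasmic reticulum, was the 1 of these 3 above 0, at 176, 144 and 96.7 CPM in Atrx-cKO and 111, 109 and 100.1 CPM in control (log2 fold change 0.38, adjusted p = 0.992, edgeR, and 0.17 without Atrx-cKO replicate 1). *Dkk1*, a second secreted Wnt antagonist, had 34.9, 35.6 and 42.2 CPM in Atrx-cKO and 65.0, 43.8 and 41.4 CPM in control, with its highest value in control replicate 1 like *Sost* and *Mepe* (log2 fold change -0.41, adjusted p = 0.992, edgeR, and -0.18 without that library). *Ptprz1*, a receptor phosphatase, had 77.0, 88.7 and 81.4 CPM in Atrx-cKO and 89.2, 102 and 96.5 CPM in control, and the groups narrowly did not overlap (log2 fold change -0.22, adjusted p = 0.992, edgeR). *Piezo1*, the mechanosensitive channel, also had groups apart at a log2 fold change of -0.10. Groups were apart in 2 of these 9 genes, against 8.31% of all genes tested. *Gja1*, the gap junction protein connexin 43 that links osteocytes, had a log2 fold change of -0.36 and *Fbln7* one of -0.13, both with overlapping groups.

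Of 19 genes of the FGF23 and phosphate axis, 14 were tested in edgeR and 0 were called. In edgeR 1 had an unadjusted p under 0.05, in the lower direction, against 3.64% of all genes. DESeq2 called 0 and gave 1 an unadjusted p under 0.05, against 4% of the genes it tested. Their median log2 fold change was -0.15 (0.13 with osteoblast scaling). The receptor *Fgfr1*, through which FGF23 signals, had a log2 fold change of -0.26 and *Fgfr3* one of -0.22, neither past the test. *Kl*, the klotho co-receptor of kidney and parathyroid, had 0 to 8 counts per library and *Fgfr4* 0 to 10. Neither passed edgeR's expression filter, and DESeq2, which tested both, called neither. Of the kidney targets of the hormone, *Slc34a1*, *Slc34a3* and *Cyp24a1* were likewise too low for edgeR's filter. DESeq2 gave an adjusted p to *Slc34a1* alone of these, and did not call it. *Cyp27b1*, the vitamin D activating enzyme, passed that filter and had the highest edgeR fold change of the list. It had 0.872, 1.56 and 1.002 CPM in Atrx-cKO and 0.631, 0.946 and 0.693 CPM in control (log2 fold change 0.59, adjusted p = 0.992, edgeR, and 0.29 without Atrx-cKO replicate 2). *Ank*, the pyrophosphate and ATP exporter also named *Ankh*, had 110, 115 and 136 CPM in Atrx-cKO and 138, 147 and 184 CPM in control, groups that did not overlap by a narrow margin (log2 fold change -0.38, adjusted p = 0.992, edgeR). *Fam20b*, a xylose kinase related to *Fam20c*, had groups apart in the other direction at a log2 fold change of 0.05. Of the 14 tested genes, groups were apart in 1 each way, against 8.31% of all genes tested.

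Of 11 genes of the sclerostin and Wnt pathway, 10 were tested in edgeR, where 0 were called and 0 had an unadjusted p under 0.05. Both counts were 0 in DESeq2 too. The median log2 fold change was -0.03 (0.23 with osteoblast scaling). The sclerostin receptors *Lrp4*, *Lrp5* and *Lrp6* had log2 fold changes of -0.02, -0.20 and -0.03, and *Mef2c*, which drives the distant *Sost* enhancer, had -0.22. Over the 10 tested genes the highest library held at most 2.52 times the lowest, less than the 3.77 times of *Sost*. *Lrp6* ranged from 92.1 to 107 CPM over the 6 libraries and *Lrp4* from 245 to 316 CPM.

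Single libraries decided the direction for *Sost* and the size for *Mepe* and *Fgf23*. The direction of *Dmp1* and *Irx5*, whose fold changes were close to 0, also turned when control replicate 3 was left out (0.021 and 0.034 on the log2 scale in edgeR), as did *Irx5* without Atrx-cKO replicate 1 (0.091). *Pdpn* and *Mepe* were below 0 in each of the 6 fits that left out 1 library, *Fgf23* was above 0 in each, and *Phex* was above 0 in each by as little as 0.00058.

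**Figure D5:**
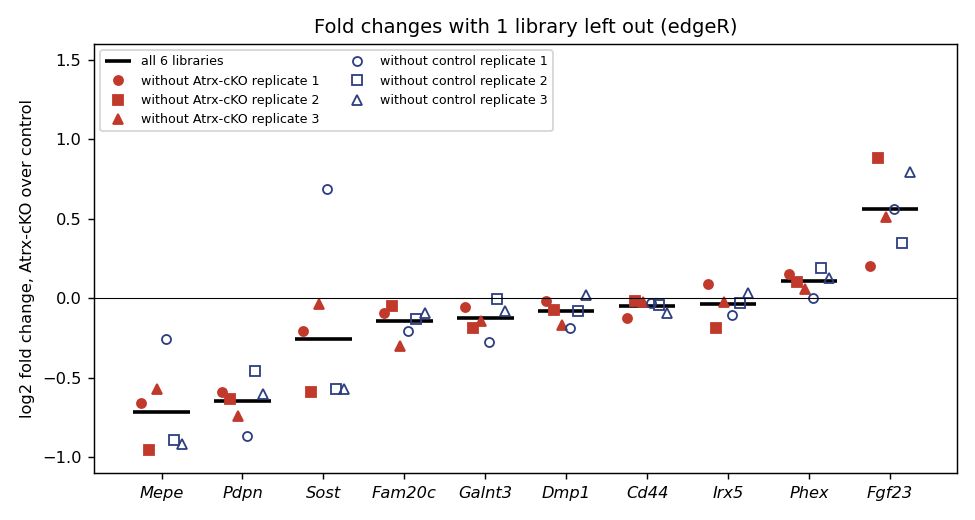
log2 fold change of the 10 genes, Atrx-cKO over control, from edgeR with all 6 libraries (black lines) and with 1 library left out at a time (filled red symbols for an Atrx-cKO library, open blue symbols for a control library). *Sost* runs from -0.59 to 0.69 and *Mepe* from -0.96 to -0.26, while *Cd44* stays between -0.12 and -0.020.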

How the data were processed

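Total RNA of 6 pulverized whole tibias was made into polyA-selected, strand-specific libraries. For each library the authors deposited raw counts, without normalization, for 55401 Ensembl identifiers and 5 summary rows. The submitters' processing notes name GRCm38 and DESeq2. The aligner and counting program are not given in the sources used here. Summary rows entered neither library sizes nor tests. Reads on no feature were 51.6% to 52.4% of all counts, summary rows included. Genotype and replicate numbers came from the labels, and genes were named by GENCODE M21 (55141 identifiers matched).

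Counts were fitted with edgeR 4.0.16 (TMM, filterByExpr, glmQLFit and glmQLFTest, genotype alone, R 4.3.3), and p-values were adjusted by Benjamini-Hochberg over all 20636 genes. Intervals at 95% use edgeR's standard errors and degrees of freedom. DESeq2 1.42.0, other scalings and filters, a replicate block, a muscle covariate and fits without each library were alternatives, and DESeq2 without each library was chosen after seeing the data. Both fits were first tested on simulated data with known changes. Libraries of a genotype differed by more than sampling noise (chi-square per degree of freedom 15.8 to 137). Promoter windows are RefSeq sequences on GRCm38.p6, cut to the 250 bases before the start.

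The members and gene lists were chosen with earlier results of these data known. Named genes were all members, the first 4 of each related list, any gene of those lists whose groups did not overlap, and the 5 nearest profiles of 3 members. *Irx6*, *Hyou1*, *Slc34a1*, *Slc34a3*, *Cyp24a1*, *Cyp27b1*, *Col1a1* and the lymphatic markers were named after their values were seen.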

Additional observations from a re-analysis of the deposited data

How the results depend on the processing

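No osteocyte gene was called in any of the edgeR or DESeq2 fits run. Over all genes, 3 were called higher and 0 lower in edgeR. DESeq2 called 10 higher and 13 lower. A minimum of 10 counts in every library left 1 higher, and edgeR's treat test at a threshold of 1 left 1 higher. With no filter, edgeR called 4 higher and 1 lower. Leaving out 1 library gave 0 to 5 higher and 0 to 1 lower in edgeR, and in DESeq2 7, 9, 9, 23, 7 and 12 higher and 12, 9, 13, 47, 6 and 5 lower (without Atrx-cKO replicates 1, 2 and 3, then control replicates 1, 2 and 3). Over all genes tested, deviations of same-numbered libraries from their genotype means had correlations of -0.025, 0.062 and -0.071. With 3 libraries a genotype and no matching in the labels, these cannot decide whether replicate numbers pair the samples. A fit with the replicate block called 0 genes, with *Sost* at -0.01, *Mepe* at -0.65, *Fgf23* at 0.48 and *Pdpn* at -0.61 (adjusted p = 0.974).

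Scaling to the osteoblast markers moved the median of all genes to 0.25, and genes that lay below 0 with TMM then lay above 0, though at or below that median. They were *Dmp1* (0.18), *Fam20c* (0.11), *Galnt3* (0.16), *Irx5* (0.21), *Cd44* (0.19), *Fbln7* (0.14), *Ptprz1* (0.033), *Piezo1* (0.15), *Fgfr1* (0.0060), *Fgfr3* (0.077), *Spp1* (0.19), *Lrp4* (0.24), *Lrp5* (0.055), *Lrp6* (0.22), *Mef2c* (0.036), *Irx2* (0.22) and *Irx3* (0.13). Without 1 library, ranges that crossed 0 in edgeR were -0.59 to 0.69 for *Sost*, -0.19 to 0.021 for *Dmp1*, -0.19 to 0.091 for *Irx5*, -0.28 to 0.14 for *Irx2*, -0.34 to 0.095 for *Irx3*, -0.13 to 0.051 for *Lrp4*, -0.069 to 0.024 for *Lrp6*, -0.22 to 0.029 for *Spp1* and -0.54 to 0.17 for *Reln*, and -0.37 to 0.81 for the *Sost* to *Dmp1* log2 ratio. DESeq2 gave 0.69 for *Sost* without control replicate 1, 0.026 for *Dmp1* and 0.038 for *Irx5* without control replicate 3, and 0.094 for *Irx5* without Atrx-cKO replicate 1. The cause was not tested. The spread between libraries of a genotype sets the width of the intervals of *Sost*, *Mepe* and *Fgf23*. Their within-genotype SD was at the 98.7, 96.1 and 95.7 percentile of all genes tested.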
